A study of Sus scrofa with 3 samples.

Results

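The miRNA miR-140 was followed in psoas major, a muscle of the loin, from growing pigs aged 63, 98 and 161 d. Its 2 members, ssc-miR-140-3p and ssc-miR-140-5p, are the mature products of the 3′ and the 5′ arm of 1 hairpin. They were picked by name, as the porcine mature products of miR-140, from the 1933 miRNA names counted in the series, 276 of which are porcine mature names. The read numbers and the arm ratio were known when they were picked, so the values below are a description of the libraries.

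The pigs were castrated male hybrids of Landrace, Large White and Duroc, labelled as fattening pigs, and the groups were defined by age. The methods of the study describe a feed that was changed with body weight as the pigs grew, so age, weight and feed cannot be told apart between the groups. Equal amounts of total RNA from several pigs of an age were pooled before a single small RNA library (1 per age) was made, which leaves no replicates. How much individual pigs of an age differ is unknown, and no p-value is given. The intervals are 95% intervals that cover counting error only, and reads copied by PCR are not independent molecules. In RNA of a whole muscle, fewer cells of a type and less RNA per cell cannot be told apart.

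A miRNA is a short RNA that guides the silencing complex to messenger RNAs, which it pairs with mainly through its seed, the bases 2 to 8 from its 5′ end. The enzymes Drosha and Dicer cut it from a hairpin, and either arm of the hairpin can be kept. miR-140 is best known from cartilage, where chondrocytes express it under the transcription factor SOX9 and where its loss in mice impairs skeletal growth and joint cartilage. Its gene lies in an intron of WWP2, which encodes a ubiquitin ligase. In the RefSeq annotation of the assembly Sscrofa11.1, MIR140 also lay within WWP2, and the flanking genes were PSMD7 and NOB1.

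The most frequent read of each arm is shown beside the porcine entry of miRBase, the miRNA database, because the 2 began at different bases. The sequences are DNA letters from 5′ to 3′, and capitals mark bases 2 to 8.
ssc-miR-140-3p, most frequent read: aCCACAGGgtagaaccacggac
ssc-miR-140-3p, miRBase entry: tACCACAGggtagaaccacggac
ssc-miR-140-5p, most frequent read: cAGTGGTTttaccctatggtag
ssc-miR-140-5p, miRBase entry: aGTGGTTTtaccctatggtag

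The 3p read began 1 base inside its entry and the 5p read began 1 base before its entry, while both ended at the same base as the entry. This held in all 3 libraries, and every representative read was 22 nt long. In the most frequent read, bases 2 to 8 were therefore CCACAGG for the 3p arm, where the entry has ACCACAG. For the 5p arm they were AGTGGTT, where the entry has GTGGTTT. That read took 47.3% to 54.4% of the 3p reads and 36.5% to 46.2% of the 5p reads in a library. Where the other reads began was not examined. No other miRNA name in the files (0) had any of these 4 stretches at its bases 2 to 8. Such a shifted start was uncommon among porcine miRNAs. It was found for 21 of 263 names (7.98%) at 63 d, 22 of 268 (8.21%) at 98 d and 25 of 265 (9.43%) at 161 d, and 14 of 255 names had the same shift in all 3 libraries. Arms were paired by name, which gave 49 porcine hairpins with both arms in all libraries. The miR-140 hairpin was the only one (1 of 49, 2.04%) with a shift on both arms in each library.

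The forward primer that the study used to measure the 3p arm by RT-qPCR is shown for comparison. Capitals mark the 16 bases at its 3′ end that are the first 16 bases of the 3p read. These bases also lie within the miRBase entry, so the primer does not tell the starts of read and entry apart.
Forward primer of ssc-miR-140-3p: gggACCACAGGGTAGAACC

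The hairpin entry of miRBase, 70 nt long, is shown with the most frequent reads in capitals, the 5p read first.
ssc-mir-140: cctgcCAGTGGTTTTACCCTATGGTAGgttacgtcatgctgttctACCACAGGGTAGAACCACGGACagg

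The 2 reads lay 18 nt apart, against 17 nt between the miRBase entries. In the fold that the files give for the surrounding stretch of genome, 18 base pairs joined the 2 arms and the predicted free energy was -61.5 kcal/mol. At its 3′ end the 3p read ran 3 bases past the base paired with the start of the 5p read, and the 5p read ran 2 bases past the base paired with the start of the 3p read. The stretch was 139 nt long with 1 undetermined base, and covered positions 107242 to 107380 of the plus strand of a genome sequence whose chromosome and build the files do not name. Both arms mapped to this 1 hairpin only, so no read had been divided between copies. No read of the hairpin was listed under the name of another species or as a predicted miRNA (0 entries in each library).

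In the libraries of 63, 98 and 161 d, all hairpins together held 1464699, 2418187 and 2242716 reads. With each name counted at 1 hairpin the totals were 969409, 1717430 and 1550125 counts, which are the base of the normalised reads (RPM, reads per 1000000 counts) used here. At these depths 3 counts, the limit that a count of 0 allows, equalled 3.09, 1.75 and 1.94 RPM. The tissue label was compared with miRNA lists of cell types. The 8 names of skeletal muscle (arms of miR-1, miR-133a, miR-133b, miR-206, miR-208b and miR-499) together held 340390, 299816 and 343924 RPM, and none was at 0. The porcine names of all other lists also were above 0 in every library. Which cells of the muscle held miR-140 was not measured.

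The 3p arm was the abundant one. Its reads numbered 1493 in the 63 d library, 2126 in the 98 d library and 6025 in the 161 d library. Scaled to depth these were 1540 RPM (1464 to 1620), 1238 RPM (1186 to 1292) and 3887 RPM (3790 to 3986). The 161 d library stood far above the other two, and the 98 d library was the lowest. Ordered by reads, the 3p arm was at place 49 of 263 detected porcine names at 63 d, 57 of 268 at 98 d and 28 of 265 at 161 d. The fold from 98 to 161 d was 3.14 (2.99 to 3.30) and the fold from 63 to 161 d was 2.52 (2.38 to 2.67). Between 63 and 98 d the fold was 0.80 (0.75 to 0.86), a smaller difference in the other direction.

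The 5p arm was counted with few reads, which were 30, 104 and 96 in the 63, 98 and 161 d libraries. These were 30.9 RPM (21.7 to 44.2), 60.6 RPM (50.0 to 73.4) and 61.9 RPM (50.7 to 75.6). The 63 d library was the lowest, and the levels at 98 and 161 d lay within the counting error of each other. Its place among the detected porcine names was 191 of 263, 166 of 268 and 161 of 265. The fold was 1.96 (1.29 to 3.04) from 63 to 98 d, 1.02 (0.77 to 1.36) from 98 to 161 d and 2.00 (1.32 to 3.12) from 63 to 161 d. The last value stood at the limit of 2 that served to call a fold. The porcine names nearest to that limit in this pair were ssc-miR-455-3p above it, with a fold of 2.05, and ssc-miR-628 below it, with a fold of 1.88 from 10 and 30 reads.

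**Figure D1:**
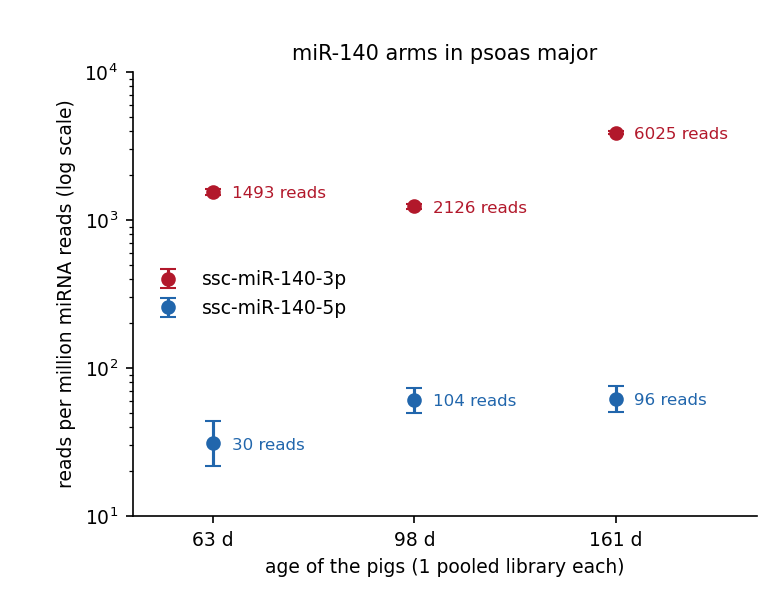
Level of the 2 miR-140 arms in RPM (log axis) in the pooled library of each age, with read numbers beside the points and bars for the 95% Wilson interval of counting error. The 3p arm reached 3887 RPM at 161 d from 1540 and 1238 RPM, while the 5p arm went from 30.9 RPM at 63 d to 60.6 and 61.9 RPM.

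Each fold was set beside those of all names with at least 10 counts in both libraries of the pair. From 63 to 98 d, 6.24% of 433 names had a fold above 2 and 7.85% a fold below 0.5, and neither arm was among them. From 98 to 161 d, 2.00% of 449 names were above 2 and 11.1% below 0.5, and the 3p arm was 1 of the 9 names above 2. From 63 to 161 d, 6.46% of 418 names were above 2 and 17.7% below 0.5, and both arms were among the 27 names above 2. The place of the 5p arm relative to the limit turned on the setting. Its fold was above 2 in 4 of 9 alternatives from 63 to 98 d, for example 2.29 with reads without mapping error. It was above 2 in 5 of 9 from 63 to 161 d. With copies of the most frequent read it was 1.82 (0.92 to 3.86) in that pair, an interval that includes 1. The other intervals computed for that pair lay above 1. Because the arms had been picked with these values known, nothing is read from their place beyond its description.

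By size of the fold from 98 to 161 d, the 3p arm was at place 3 of 449 names and at place 2 of 231 porcine names. The porcine name above it was ssc-miR-143-5p, with a fold of 3.19 from 25 and 72 reads. The 3p arm was at place 166 of 226 porcine names from 63 to 98 d and at place 6 of 224 from 63 to 161 d. The 5p arm was at place 19, 61 and 14 of the porcine names in the pairs 63 and 98 d, 98 and 161 d, and 63 and 161 d. The pairs 63 and 98 d and 98 and 161 d share the 98 d library, so its level enters both with opposite sign.

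The median fold of all names was 1.05, 0.85 and 0.84 in the same 3 pairs, and the scale chosen moves it. TMM factors raised every log2 fold by 0.03, 0.19 and 0.22 in the 3 pairs. Relative to the median fold of all names, the 3p arm was at 0.77, 3.67 and 3.02 times and the 5p arm at 1.87, 1.20 and 2.40 times. With TMM factors 16 names were above 2 and 32 below 0.5 from 98 to 161 d, in place of 9 and 50. In the pair of 63 and 161 d the numbers were 33 and 46 in place of 27 and 74. With the total of all listed reads, 37 names were above 2 and 23 below 0.5 from 63 to 98 d, in place of 27 and 34.

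**Figure D2:**
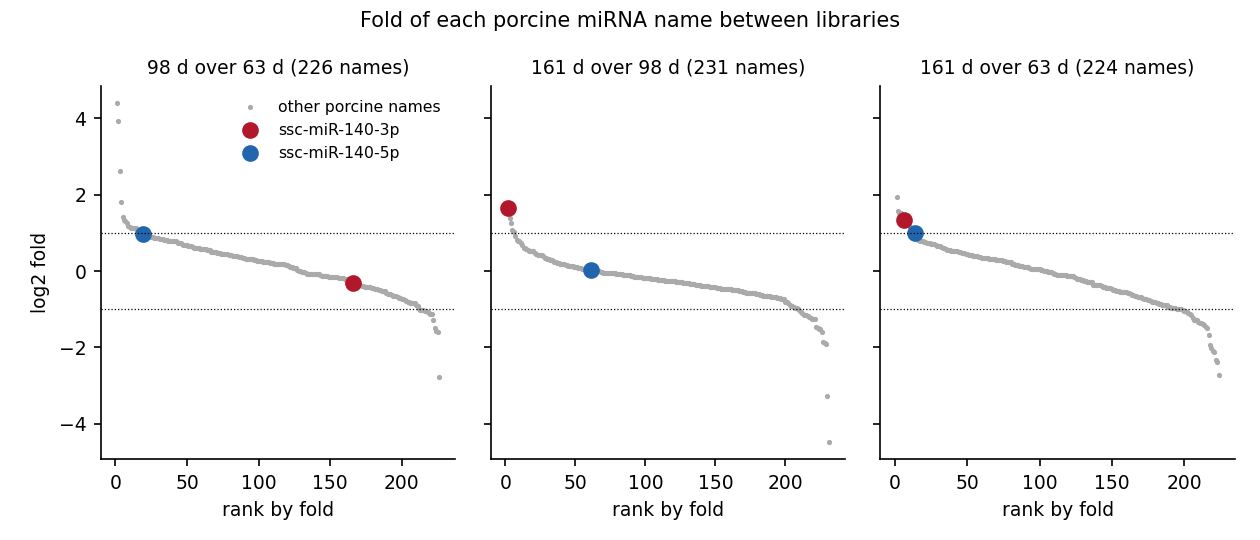
Log2 fold of each porcine miRNA name with at least 10 counts in both libraries, ordered from highest to lowest in the 3 pairs of ages, with dotted lines at the 2-fold limits. The 3p arm stood at place 166 of 226, 2 of 231 and 6 of 224, and the 5p arm at place 19, 61 and 14.

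The balance of the arms followed from these levels. Of all miR-140 reads, the 3p arm took 98.0% (97.2 to 98.6) at 63 d, 95.3% (94.4 to 96.1) at 98 d and 98.4% (98.1 to 98.7) at 161 d. The ratio of 3p to 5p reads was 49.8 (34.7 to 71.3) at 63 d, 20.4 (16.8 to 24.9) at 98 d and 62.8 (51.3 to 76.8) at 161 d. The 98 d library thus had the lowest ratio, outside the intervals of the other 2, whose intervals overlapped. This ratio is taken within a library and does not depend on its depth scale. The lower ratio at 98 d came with a lower 3p and a higher 5p level than at 63 d. The higher ratio at 161 d came with a higher 3p level at about the same 5p level.

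For 37 porcine hairpins both arms had at least 10 counts in each library. The arms were paired by name, so for a miRNA with several hairpin copies the ratio is not that of a single hairpin. In size of the arm bias, the miR-140 hairpin was at place 8, 12 and 8 of 37 at 63, 98 and 161 d. The bias had a median of 5.94, 8.94 and 7.73 over the 37 hairpins, whichever arm was the larger. The log2 ratio of 3p to 5p changed by -1.28 from 63 to 98 d and by +1.62 from 98 to 161 d for miR-140. Without regard to sign these were the third largest (place 3) and second largest (place 2) changes among the 37 hairpins, whose median change was 0.44 and 0.31. Between 63 and 161 d the change was 0.33 and the place 23, with a median of 0.43. In the pair of 98 and 161 d, ssc-miR-2320 changed by -1.76 on few reads, from 44 on each arm to 31 of the 3p and 105 of the 5p arm.

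**Figure D3:**
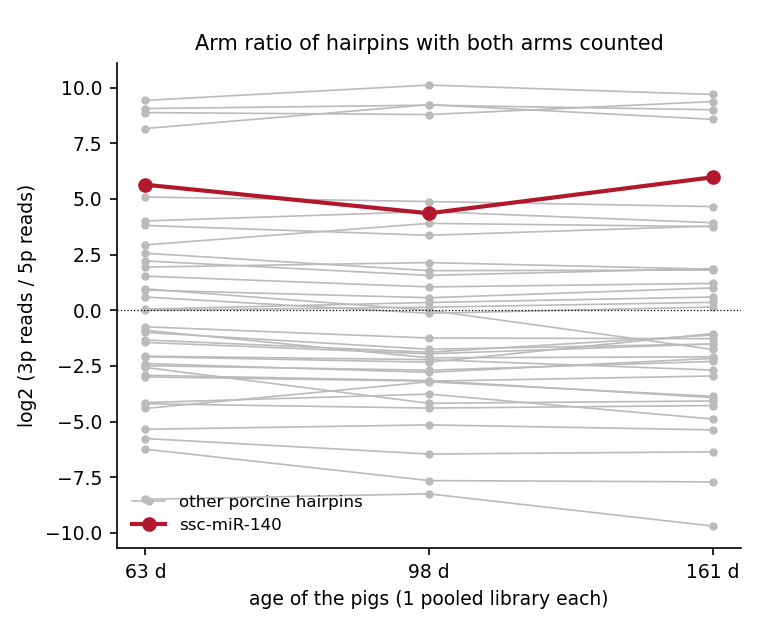
Log2 of the ratio of 3p to 5p reads for the 37 porcine hairpins with both arms at 10 counts or more in every library, by age, with miR-140 in red and 1 grey line for each other hairpin. The miR-140 line went from 5.64 at 63 d to 4.35 at 98 d and 5.97 at 161 d.

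The reads of an arm are a mixture of the most frequent read, other reads that match the genome or the hairpin without error, and reads with mapping errors. For the 3p arm the most frequent read made up 758 of 1493 reads at 63 d (50.8%, 48.2 to 53.3), 1005 of 2126 at 98 d (47.3%, 45.2 to 49.4) and 3279 of 6025 at 161 d (54.4%, 53.2 to 55.7). Its share was lowest at 98 d and highest at 161 d, and the intervals of these 2 libraries did not overlap. Reads with mapping errors were 389, 579 and 1390, or 26.1% (23.9 to 28.3), 27.2% (25.4 to 29.2) and 23.1% (22.0 to 24.2). The 161 d share was below the interval of the 98 d library.

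For the 5p arm the most frequent read had 12, 48 and 35 copies, or 40.0% (24.6 to 57.7), 46.2% (36.9 to 55.7) and 36.5% (27.5 to 46.4). Its reads with mapping errors were 12, 31 and 33, or 40.0% (24.6 to 57.7), 29.8% (21.9 to 39.2) and 34.4% (25.6 to 44.3). All intervals of these shares of the 5p arm overlapped between the libraries, and the differences between the shares were not tested. Over the porcine names with at least 100 counts in a library, 150, 168 and 159 in number, the median share with mapping errors was 16.0%, 15.9% and 15.9%. Both arms were above this median in every library. The share of the 3p arm was exceeded by 33, 42 and 47 of those names, so that it lay within the upper part of their range.

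**Figure D4:**
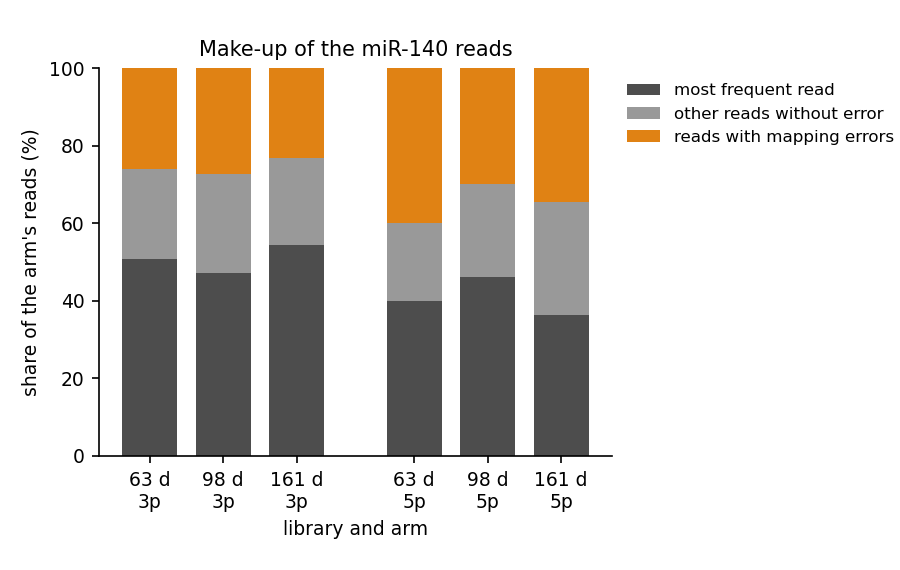
Share of the reads of each miR-140 arm (%) that are the most frequent read, other reads without error or reads with mapping errors, with 1 bar per library and arm that adds up to all reads of the arm. The most frequent read of the 3p arm took between 47.3% and 54.4%, and that of the 5p arm, resting on 12 to 48 copies, between 36.5% and 46.2%.

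The course of each arm over the ages was compared with that of the porcine names with at least 100 counts in every library. The measure was the distance between the 3 log2 levels after each name had been centred on its own mean, so it rests on 3 libraries and has no error. Nearest to the 3p arm was ssc-miR-143-3p, abundant in smooth muscle, at a distance of 0.42 against a median of 1.47 over 141 names. Its levels were 13471, 16124 and 38349 RPM, and it shared the high level at 161 d but not the lower level at 98 d. Next came ssc-miR-145-5p, made from the same primary transcript as miR-143, at a distance of 0.64. Its levels of 701, 524 and 995 RPM were lowest at 98 d and highest at 161 d, as for the 3p arm. The other names were ssc-miR-181c at 0.65, ssc-miR-885-5p at 0.84 and ssc-miR-29a at 0.93, and the level of these 3 was higher at each later age. The most frequent read of ssc-miR-29a carried a C to T substitution at 98 and 161 d but not at 63 d, so its reads differed in make-up. The 5p arm lay at a distance of 1.21 from the 3p arm, which would be place 26.

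Nearest to the 5p arm were ssc-miR-137, ssc-miR-497, ssc-miR-29c, ssc-miR-218b and ssc-miR-148a-3p, at distances from 0.19 to 0.21 against a median of 0.87 over the names compared. All 5 were lower at 63 d than at both later ages. The most abundant of them, ssc-miR-148a-3p, had 6793, 10871 and 11796 RPM. The distances from the 5p arm carry the counting error of its 30 to 104 reads.

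Some cell type lists shared part of the course of an arm. The other chondrocyte miRNA, miR-455, whose gene lies in an intron of the cartilage collagen gene COL27A1, was measured by 2 names. The arm ssc-miR-455-3p had 55, 153 and 180 reads, or 56.7, 89.1 and 116 RPM. The arm ssc-miR-455-5p had 19, 74 and 78 reads, or 19.6, 43.1 and 50.3 RPM. Both miR-455 arms were lowest at 63 d and highest at 161 d, and summed they held 76.3, 132 and 166 RPM. No counting interval was computed for these levels, and those of ssc-miR-455-5p at 98 and 161 d, from 74 and 78 reads, were close. The 2 names are arms of the same miRNA and so are not independent of each other. From 63 to 161 d both (2 of 2) had a fold above 2, against 6.46% of all names. These folds were 2.05 for ssc-miR-455-3p, near the limit, and 2.57 for ssc-miR-455-5p, which rests on 19 reads at 63 d. From 98 to 161 d neither had a fold above 2 (0 of 2), with folds of 1.30 and 1.17, against 2.00% of all names. The large step of the 3p arm of miR-140 after 98 d had no counterpart of its size there.

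The 4 names of the smooth muscle list, the arms of miR-143 and miR-145, summed to 14225, 16719 and 39459 RPM. From 98 to 161 d, 2 of 4 had a fold above 2, against 2.00% of all names. These were ssc-miR-143-3p at 2.38 and ssc-miR-143-5p at 3.19, while ssc-miR-145-5p was at 1.90 and ssc-miR-145-3p at 1.21. The median of the list was 2.14 against 0.85 for all names. Between 63 and 161 d, 3 of 4 had a fold above 2, against 6.46% of all names. These were ssc-miR-143-3p at 2.85, ssc-miR-143-5p at 2.37 from 19 reads at 63 d, and ssc-miR-145-3p at 2.07, near the limit. The more abundant arm of miR-145, ssc-miR-145-5p, was at 1.42. All 4 names come from the same primary transcript, so they are not independent of each other. The median of the list in that pair was 2.22 against 0.84 for all names. No name of the list was at 0 in a library. The summed level of the list was thus highest in the library in which the 3p arm was highest. Most of that sum was ssc-miR-143-3p, with 13471, 16124 and 38349 RPM, which was also the name nearest in course to the 3p arm. The part of the list in the level of the 3p arm was not tested.

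The remaining lists did not share the step at 161 d. The mesenchymal list, 4 names of miR-199a, miR-199b and miR-214, summed to 4917, 6116 and 4857 RPM. The endothelial list, both arms of miR-126, summed to 8814, 13755 and 9779 RPM. The erythroid names ssc-miR-144 and ssc-miR-451 summed to 1220, 2100 and 1547 RPM, and the 3 leukocyte names, of miR-142 and miR-150, to 1656, 2095 and 1426 RPM. The endothelial, erythroid, leukocyte and mesenchymal sums were highest at 98 d, the age at which the 3p arm was lowest. The median fold of all porcine names was likewise above 1 from 63 to 98 d (1.13) and below 1 from 98 to 161 d (0.84). The median fold of these 4 lists from 98 to 161 d lay between 0.66 and 0.71, against 0.85 for all names. None of their 11 names was above 2 in that pair, where 2.00% of all names were. Of the 11, 1 was below 0.5, ssc-miR-142-3p with a fold of 0.42, against 11.1% of all names. Both counts lie near the share over all names, so nothing is read from them.

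The skeletal muscle list had a median fold of 0.74 from 98 to 161 d over the 7 of its 8 names with at least 10 counts, with ssc-miR-206, a miRNA of muscle precursor cells and slow fibres, at 0.499. Its sum was held by ssc-miR-133a-3p, with 313783, 244634 and 306137 RPM. A name with that share of a library moves the RPM of all others. Without it in the total, the folds of the 3p arm were 0.73, 3.42 and 2.50 in the pairs 63 and 98 d, 98 and 161 d, and 63 and 161 d.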

How the data were processed

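Small RNA of psoas major was sequenced on an Illumina HiSeq, and libraries were grouped by the labelled age. Per the labels, the authors processed reads with ACGT101-miR 4.2, and the tool notes name miRBase 20.0. The genome build is not given in the sources used here. The deposited files hold counts, how often the most frequent sequence of an arm was read. They also hold expected counts made by the authors, the reads of all isoforms at a hairpin (reads at several hairpins divided between them), in total and without or with mapping errors, all without normalization. The deposited read length was used too.

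Expected counts were used unrounded for levels and folds. For a name with several hairpins, the hairpin present in the most libraries was taken, then the first in the file. In the 63 d file 139 rows lacked a name, which was taken from a row of the same file with the same sequence, and the 33 rows without one (0.171% of reads) were left out of the totals. Levels are reads per 1000000 of the resulting total. Folds are later over earlier age with 95% exact conditional Clopper-Pearson intervals, and shares have Wilson intervals. No test was run, since each age has 1 library. Folds above 2 or below 0.5 with at least 10 counts in both libraries were counted as background.

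Named miRNAs are both members, the 5 porcine names nearest in course to each (at least 100 counts per library), members of the cell type lists, both arms of porcine hairpins, and the names around a limit or a rank of the arms, added after their values were seen. The members and lists were chosen with earlier results of these data known. Of the leukocyte list, miR-223 had no porcine name in the files. RefSeq (Sscrofa11.1) served only for gene names and neighbours.

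The alternatives were 5 other scales (TMM of edgeR and the median of ratios of DESeq2 among them), error-free reads, representative copies, a pseudocount of 1, summed hairpins and other count minimums. Python 3.11.15 (numpy 2.4.6, pandas 2.3.3, scipy 1.17.1, matplotlib 3.10.9) and R 4.3.3 (edgeR 4.0.16, DESeq2 1.42.0) were used, and the fold intervals were tested on simulated data.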

Additional observations from a re-analysis of the deposited data

How the results depend on the processing

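No paired analysis was possible because each age had 1 library, and no replicate could be left out. A reversal was defined only for a fold past the limit on the main scale, and no alternative for such a fold changed its direction. The rest of the 96 alternatives could not count as reversed. The fold of the 3p arm was above 2 in all 9 alternatives between 98 and 161 d, with a range of 3.06 to 3.76. It was above 2 in all 9 between 63 and 161 d as well (2.49 to 3.00), and below 1 in all 9 between 63 and 98 d (0.73 to 0.86). It left its counting interval of the main scale in 12 of these. From 63 to 98 d it was 0.863 with the total of all listed reads, 0.861 with hairpins summed, 0.730 without ssc-miR-133a-3p and 0.748 with representative copies. From 98 to 161 d it was 3.42 without ssc-miR-133a-3p, 3.57 with TMM, 3.76 with the median of ratios, 3.32 with error-free reads and 3.61 with representative copies. Between 63 and 161 d it was 2.93 with TMM, 3.00 with the median of ratios and 2.71 with representative copies. The 5p arm stayed within its interval but crossed the limit of 2. It was above 2 in 4 of 9 alternatives for 63 and 98 d (1.78 to 2.29) and in 5 of 9 for 63 and 161 d (1.82 to 2.38), and on either side of 1 for 98 and 161 d (0.81 to 1.22), so its call rests on the setting. The share of the 3p arm at 161 d was 98.9% in representative copies, and the other 5 alternatives for this share and all 6 for the share with errors lay within the counting intervals.

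The counts of names above 2 and below 0.5 changed with the minimum. From 63 to 98 d they were 7 and 13 with at least 100 counts, 73 and 103 with at least 1 count, and 15 and 14 among porcine names. From 98 to 161 d they were 2 and 13, 66 and 118, and 6 and 23, and 16 and 32 with TMM. Between 63 and 161 d they were 8 and 25, 65 and 162, and 14 and 26, and 33 and 46 with TMM. The cause of these changes was not tested. With 30 to 104 reads, differences of the 5p arm within its counting interval could not be resolved.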
